A study of Homo sapiens with 54 samples.

Results

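The 10 genes described here encode the epidermal growth factor (EGF) receptor EGFR, its relatives ERBB2 and ERBB3, and the EGFR ligands HBEGF, AREG, EREG, TGFA, BTC, EPGN and EGF. They were taken by gene symbol from a table of 27470 genes, which holds 1 row for each of the 10. RNA was sequenced from the triple negative breast cancer lines SUM1315, which is BRCA1 mutant, and MDA-MB-468, which is BRCA1 wild type and is known for an amplified EGFR gene. Each line was measured in 9 conditions with 3 libraries each, which gave 54 libraries and 18 conditions in all.

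The parental cells were left untreated, or were treated overnight with the PARP inhibitor olaparib, with cisplatin (CDDP), or with both drugs. The olaparib dose was 8 µM for SUM1315 and 3 µM for MDA-MB-468. The CDDP doses were 2 and 4 µM for SUM1315, and 1 and 2.5 µM for MDA-MB-468. Olaparib-resistant (OlaR) cells were selected from each parental line by stepwise exposure to olaparib and stayed in the drug, at 25 µM for SUM1315 and 15 µM for MDA-MB-468, so each OlaR group also carries olaparib. They were left as such or given the same CDDP doses as the parental line. OlaR cells thus differ from olaparib-treated parental cells in selection, olaparib dose and length of exposure, which cannot be told apart. Each OlaR population is 1 derived line, and no source says whether the 3 libraries of a condition came from separate cultures, so p-values measure the spread between these libraries.

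EGF family ligands are made as membrane proteins and are cut free by proteases of the ADAM family. They bind EGFR, which pairs with itself or with a relative, and the paired receptors signal through the RAS, ERK and AKT pathways. ERBB2 has no known ligand of its own and ERBB3 has little kinase activity, so both work mainly in pairs. EGFR is a frequent receptor of triple negative breast cancer cells, and several of the ligand genes are themselves switched on by receptor signalling.

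EPGN, EREG, AREG and BTC are neighbours on chromosome 4. They lie in 486 kb with no other protein-coding gene between them (GRCh38). Against olaparib-treated parental cells, OlaR SUM1315 cells had more EREG and AREG and less of their neighbour EPGN. Against untreated cells EREG was higher too, while AREG and EPGN were lower. HBEGF, on chromosome 5, had the largest fall of the ligands with olaparib alone in parental SUM1315 cells. The 250 bases upstream of the RefSeq start of these 4 genes (GRCh38.p14) are therefore shown 5′ to 3′ on the strand of the gene. Capitals mark the letters TGACGTCA, a cyclic AMP response element (CRE), and GGGCGG, a GC box, on either strand.
EPGN, chr4:74308220-74308469, plus strand: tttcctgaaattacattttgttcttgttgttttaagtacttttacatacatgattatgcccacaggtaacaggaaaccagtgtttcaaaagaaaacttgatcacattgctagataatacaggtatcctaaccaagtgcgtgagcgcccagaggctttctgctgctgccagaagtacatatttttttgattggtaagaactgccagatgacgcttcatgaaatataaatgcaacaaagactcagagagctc
EREG, chr4:74364895-74365144, plus strand: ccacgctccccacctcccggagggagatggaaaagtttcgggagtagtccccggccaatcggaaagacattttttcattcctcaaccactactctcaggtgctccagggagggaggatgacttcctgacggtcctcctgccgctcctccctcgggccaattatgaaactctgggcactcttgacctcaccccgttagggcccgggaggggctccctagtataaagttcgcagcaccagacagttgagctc
AREG, chr4:74444886-74445135, plus strand: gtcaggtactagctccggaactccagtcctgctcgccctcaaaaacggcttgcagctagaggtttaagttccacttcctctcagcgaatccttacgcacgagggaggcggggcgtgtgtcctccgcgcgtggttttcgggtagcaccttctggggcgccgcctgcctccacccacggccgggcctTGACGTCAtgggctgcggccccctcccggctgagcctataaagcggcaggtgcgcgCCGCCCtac
HBEGF, chr5:140346604-140346853, minus strand: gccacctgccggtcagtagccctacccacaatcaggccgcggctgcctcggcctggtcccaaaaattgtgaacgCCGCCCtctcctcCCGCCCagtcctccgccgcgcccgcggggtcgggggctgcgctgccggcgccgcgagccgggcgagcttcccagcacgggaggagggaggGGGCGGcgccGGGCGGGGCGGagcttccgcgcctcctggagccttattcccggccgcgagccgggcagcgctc

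The AREG window holds the CRE letters, which begin 65 bases before the start, and 1 GC box. Of 35116 RefSeq promoter windows of this length, 1.65% hold the CRE letters. The HBEGF window holds 5 GC boxes, 1 of which overlaps its neighbour by a base, and GC boxes occur in 42.6% of all windows. The EPGN and EREG windows hold neither, nor the AP-1 letters TGACTCA on either strand (4.2% of all windows). The GC content was 38% for EPGN, 58% for EREG, 65.2% for AREG and 76.4% for HBEGF. The table held 11 entries for 9 of the 10 genes. ERBB3 was not matched.

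Levels are given as adjusted read counts, which the authors had scaled to a common library size. That size was worked out here as 5585170 reads, and the adjusted values of a library summed to between 5140429 and 6161061. The libraries are 3′ tags, with a read per transcript end, so levels were not divided by transcript length. Whole reads were recovered from the adjusted values. Their sum ran from 4977284 to 9268162 in parental libraries and from 2070301 to 4676284 in OlaR libraries, so OlaR values of genes with few reads are the least precise. MDA-MB-468 cells carried the epithelial markers EPCAM (2631 to 3793) and CDH1 (654 to 1045), which were at no more than 5 reads in any SUM1315 library, whereas VIM was at 7929 to 13246 in SUM1315 and 7.99 to 53.8 in MDA-MB-468. ERBB2 was low in both lines, PGR did not exceed 3 reads, and ESR1 reached 25.6 in SUM1315 and 221 in MDA-MB-468. Of the markers of other cell types, PTPRC did not exceed 8 reads and CD3E 1 read, but PECAM1 (45.0 to 207) and COL1A1 (132 to 796) were present in SUM1315. The libraries were multiplexed in batches of 27 and no source says which shared a batch, so the line and the batch cannot be told apart, and levels in the 2 lines are set side by side with no test. Whether the OlaR and parental libraries of a line shared a batch is not known either.

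Untreated SUM1315 and untreated MDA-MB-468 cells carried different members of the family. EREG was the most abundant ligand transcript of SUM1315, with 3813, 4160.1 and 3478 adjusted read counts in the untreated libraries, and did not exceed 8 reads in any MDA-MB-468 library. EGFR was at 955 ± 8.43 (SD, n = 3) in untreated SUM1315 and 2842 ± 97.9 in untreated MDA-MB-468. ERBB3 was at 511 ± 25.1 in untreated MDA-MB-468 and at 2 to 13 reads per library in SUM1315. AREG (590.3 ± 112), HBEGF (529 ± 81.6) and TGFA (373 ± 14.5) were the next ligands of untreated SUM1315, and in untreated MDA-MB-468 these genes were at 14.04 ± 9.50, 9.97 ± 5.94 and 87.9 ± 8.86. EPGN did not exceed 3 reads in any MDA-MB-468 library, and BTC and EGF did not exceed 10 reads in any SUM1315 library. These low genes were left out of the fit of the line concerned, so 8 of the 10 members were tested in each line.

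**Figure D1:**
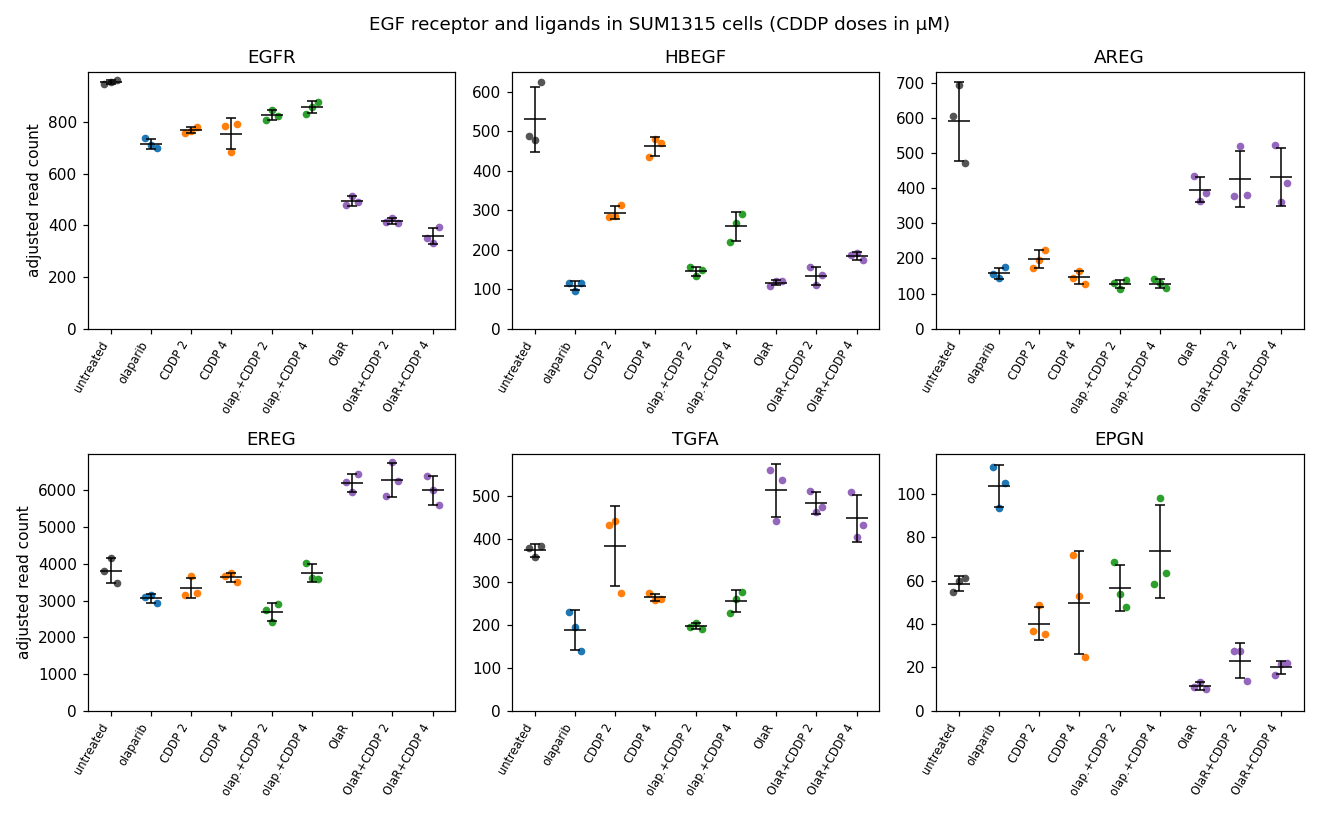
Adjusted read counts (y axis, linear, from 0) of EGFR and 5 ligands in the 9 conditions of SUM1315 cells (x axis), with 1 point per library and bars for the mean and SD of 3 libraries. AREG and HBEGF were highest in untreated cells, EREG and TGFA were highest in OlaR cells, and EGFR and EPGN were lowest in OlaR cells.

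The 27 libraries of a line were fitted together by limma on the log2 scale, with 1 added to each value, and a member was called at a Benjamini-Hochberg adjusted p of at most 0.05. Olaparib alone changed 6 of 8 members in SUM1315 (background, 36% of all genes called) and 2 of 8 in MDA-MB-468 (21.5%). The lower CDDP dose changed 3 of 8 members in SUM1315 (33.9%) and 2 of 8 in MDA-MB-468 (20%), and the higher dose changed 3 of 8 in SUM1315 (43.9%) and 3 of 8 in MDA-MB-468 (25.1%). OlaR cells differed from olaparib-treated parental cells in 5 of 8 members in SUM1315 (47.2%) and 5 of 8 in MDA-MB-468 (51.5%). For the higher CDDP dose added to olaparib, 2 of 8 members were called in SUM1315 (8.44%) and 2 of 8 in MDA-MB-468 (23.1%). For the higher dose in OlaR cells, 2 of 8 were called in SUM1315 (16.7%) and 2 of 8 in MDA-MB-468 (18.7%). For olaparib added to the higher CDDP dose, 1 of 8 was called in SUM1315 (12.8%) and 0 of 8 in MDA-MB-468 (11.9%).

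With olaparib present, few genes of any kind were called for the lower CDDP dose, so these counts say little about the members. In SUM1315, libraries with olaparib and 2 µM CDDP lay above the olaparib libraries for EGFR and HBEGF. They lay below them for AREG, EREG and EPGN and overlapped for ERBB2, ERBB3 and TGFA, where 23.6% of all fitted genes did not overlap. Added to olaparib it changed 0 of 8 members in SUM1315 (3.76% of all genes called by limma, with 4 members at an unadjusted p under 0.05 and 1 called by voom) and 1 of 8 in MDA-MB-468 (5.26%). In OlaR cells it changed 0 of 8 members in SUM1315 (1.42%, with 2 at an unadjusted p under 0.05 and 0 called by voom) and 0 of 8 in MDA-MB-468 (4.76%, with 1 and 0). The count of 0 for olaparib added to the higher CDDP dose in MDA-MB-468 stood beside 1 member at an unadjusted p under 0.05 and 1 called by voom. The contrasts of a line share libraries: the drugs alone share the untreated libraries, and 3 kinds of contrast share the olaparib libraries.

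EGFR, the receptor for all 7 ligands (chr7:55019017-55211628, plus strand, 28 exons over 193 kb), fell with every single drug in both lines. In SUM1315 its adjusted read counts were 946, 955 and 963 in untreated cells, 738, 712 and 699 with olaparib, 759.7, 766 and 781 with 2 µM CDDP, and 784, 686 and 794 with 4 µM CDDP. None of these treated libraries reached the untreated ones. In bulk RNA, fewer cells with the transcript and less of it per cell cannot be told apart. The log2 fold change was -0.41 ± 0.085 (SE) with olaparib (limma, adjusted p = 0.000239), -0.31 ± 0.085 with 2 µM CDDP (0.00478) and -0.34 ± 0.085 with 4 µM CDDP (0.00146). The call at 2 µM was lost when only the groups compared were fitted (adjusted p = 0.0575 by limma).

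In MDA-MB-468 EGFR moved in the same direction with smaller errors. It was at 2855, 2739 and 2933 in untreated cells, 2261, 2106 and 2216 with olaparib, 2413, 2332 and 2390.5 with 1 µM CDDP, and 2413, 2332 and 2466 with 2.5 µM CDDP. The untreated libraries again lay above all of these. By limma the log2 fold change was -0.37 ± 0.055 with olaparib (adjusted p = 5.70e-07), -0.26 ± 0.055 with 1 µM CDDP (0.000402) and -0.24 ± 0.055 with 2.5 µM CDDP (0.000659).

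With olaparib already present, the change of EGFR with CDDP had the opposite sign. In SUM1315 EGFR was at 833, 859 and 879.8 with olaparib and 4 µM CDDP, above the 3 olaparib libraries, and the log2 fold change of 0.26 ± 0.085 did not pass the test (limma, adjusted p = 0.0530). In MDA-MB-468 it was at 2656, 2677 and 2692 with olaparib and 2.5 µM CDDP, also above the olaparib libraries, and rose by 0.29 ± 0.055 (5.96e-05). The test of the difference between the CDDP effect with and without olaparib passed in both lines, at 0.60 ± 0.12 in SUM1315 (adjusted p = 0.000406) and 0.53 ± 0.078 in MDA-MB-468 (7.35e-07). This interaction was called for 5 of 8 members in SUM1315 (21.5% of all genes) and 2 of 8 in MDA-MB-468 (20.2%).

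OlaR cells had less EGFR than olaparib-treated parental cells, and CDDP lowered it again. In SUM1315 EGFR was at 479, 514 and 492 in OlaR cells, a log2 fold change of -0.53 ± 0.085 against olaparib (limma, adjusted p = 4.67e-06). With 4 µM CDDP these cells were at 353, 332 and 393, a log2 fold change of -0.46 ± 0.085 (0.000233). In MDA-MB-468 EGFR was at 1750.0, 1986 and 1948 in OlaR cells (-0.21 ± 0.055, adjusted p = 0.000957) and at 1353, 1385 and 1304 with 2.5 µM CDDP (-0.49 ± 0.055, 1.31e-09). The libraries of OlaR cells with the higher CDDP dose lay below all other libraries of their line. The fall against OlaR cells without CDDP was 1.38-fold in SUM1315 and 1.40-fold in MDA-MB-468. The CDDP effect in OlaR cells differed from that in olaparib-treated parental cells by -0.72 ± 0.12 in SUM1315 (adjusted p = 0.000238) and by -0.78 ± 0.078 in MDA-MB-468 (1.15e-10). EGFR was the 1 member of 8 called in this interaction in each line, where 6.4% of all genes were called in SUM1315 and 15% in MDA-MB-468. At an unadjusted limma p under 0.05 there were 5 members in SUM1315 and 1 in MDA-MB-468.

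**Figure D2:**
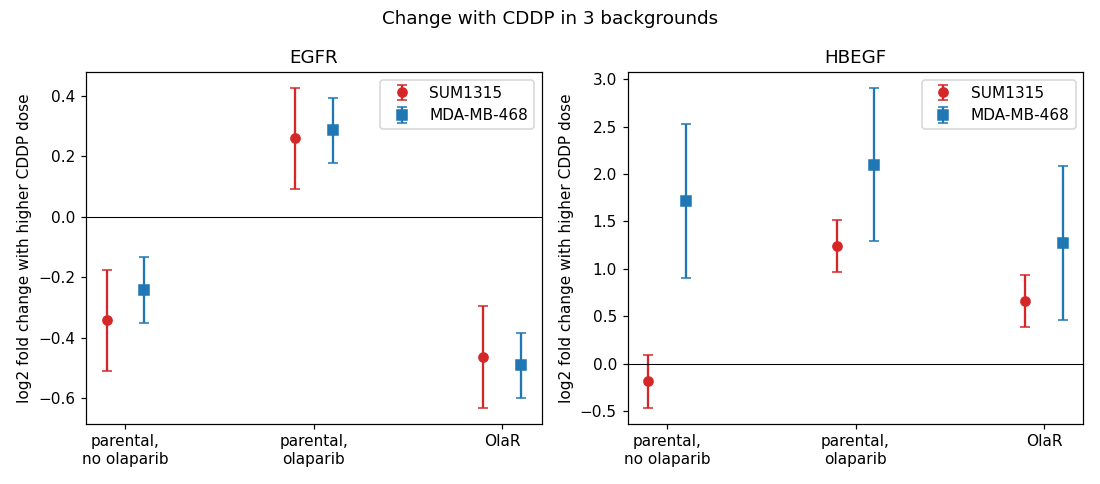
Log2 fold change with the higher CDDP dose (y axis) of EGFR and HBEGF in parental cells without olaparib, parental cells with olaparib, and OlaR cells (x axis), with points for limma estimates and bars for their 95% intervals. EGFR lay below 0 without olaparib and in OlaR cells and above 0 with olaparib in both lines, while HBEGF lay above 0 in 5 of 6 cases.

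EGFR is a long gene, and long genes as a class moved with CDDP. In SUM1315 the 2482 fitted genes that span over 100 kb had a median log2 fold change of -0.30 with 4 µM CDDP alone and -0.17 with 4 µM CDDP in OlaR cells, against 0.13 and 0.0070 for genes under 20 kb. In MDA-MB-468 the medians of 2334 long genes were -0.18 with 2.5 µM CDDP alone and -0.28 in OlaR cells, against 0.10 and 0.095 for genes under 20 kb. When CDDP at the higher dose was added to olaparib, the long genes were at -0.04 in SUM1315 and -0.03 in MDA-MB-468. The part of gene length in the change of EGFR was not tested.

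Ordered by mean, EGFR ran in SUM1315 from OlaR with 4 µM CDDP (359.5) through OlaR with 2 µM CDDP (417), OlaR (495), olaparib (716), 4 µM CDDP (755), 2 µM CDDP (769), olaparib with 2 µM CDDP (826) and olaparib with 4 µM CDDP (857) to untreated cells (955). Of the 8 pairs of neighbours in that order, 5 did not overlap, and the overlapping ones were olaparib with 4 µM CDDP alone, the CDDP doses with each other, and the combinations with each other. In MDA-MB-468 the order was OlaR with 2.5 µM CDDP (1347), OlaR with 1 µM CDDP (1789), OlaR (1895), olaparib (2194), 1 µM CDDP (2379), 2.5 µM CDDP (2404), olaparib with 1 µM CDDP (2410.3), olaparib with 2.5 µM CDDP (2675) and untreated cells (2842). There too 5 of 8 pairs did not overlap. Over the 9 condition means of log2 values, the genes most like EGFR were MOV10 (Pearson r = 0.989), TRIM2 (0.985) and LYRM1 (0.984) of 9448 genes in SUM1315, and MED13L (0.985), DYRK1A (0.981) and PPP2R5E (0.977) of 9357 genes in MDA-MB-468. The 9 means share their libraries within a line, and these values are descriptions.

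ERBB3, the receptor partner that carries docking sites for PI3 kinase (chr12:56076799-56103505, plus strand), shared some changes of EGFR in MDA-MB-468. Like EGFR it fell with each single drug and was lower in OlaR cells than with olaparib. Unlike those of EGFR, its changes with the higher CDDP dose on top of olaparib and in OlaR cells were not called. It was at 511, 485 and 535 in untreated cells and at 362, 392 and 315 with olaparib, with no overlap, and the log2 fold change was -0.52 ± 0.096 (limma, adjusted p = 3.50e-05). The log2 fold change was -0.43 ± 0.096 with 1 µM CDDP (0.000706) and -0.41 ± 0.096 with 2.5 µM CDDP (0.000914). OlaR cells were at 258, 246 and 295, below all olaparib libraries (-0.42 ± 0.096, adjusted p = 0.000247). CDDP on top of olaparib left ERBB3 at 376 ± 37.2 at the higher dose, a log2 fold change of 0.077 (95% interval -0.11 to 0.27, adjusted p = 0.626 by limma), and in OlaR cells at 265 ± 10.2 (-0.0045, -0.19 to 0.18, 0.983). The interaction of olaparib with 2.5 µM CDDP was 0.49 ± 0.14 (0.00669).

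ERBB2, the partner without a ligand (chr17:39687914-39730426, plus strand), was read 4 to 71 times per library in MDA-MB-468 and 15 to 57 times in SUM1315. In MDA-MB-468 it was at 16.1, 31.0 and 30.2 with olaparib and at 16.3, 12.2 and 5.33 in OlaR cells, a log2 fold change of -1.19 ± 0.40 (limma, adjusted p = 0.0113) from groups that overlapped. The call was lost without OlaR replicate 3 (-0.77, adjusted p = 0.140) and without olaparib replicate 2 (0.0556), so it rests on these libraries. In SUM1315 ERBB2 was at 47.9, 18.7 and 43.97 with olaparib and at 53.2, 52.5 and 57.0 in OlaR cells, a difference that did not pass the test (0.65 ± 0.31, adjusted p = 0.0885 by limma). The change in OlaR cells differed between the lines by 1.84 ± 0.55 (adjusted p = 0.00621 by limma over all 54 libraries). That comparison was called for 7 of 10 members, against 41.7% of all genes.

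HBEGF, a heparin-binding ligand that also binds ERBB4 (chr5:140332843-140346603, minus strand), was the member with the largest fall under olaparib in SUM1315. It was at 488, 477 and 623 in untreated cells and at 115, 95.0 and 116 with olaparib. The groups did not overlap, and HBEGF was 4.82-fold lower with olaparib (log2 fold change -2.27 ± 0.14, limma, adjusted p = 3.02e-14). With CDDP alone it was at 283, 286 and 313 at 2 µM (-0.84 ± 0.14, adjusted p = 1.96e-05) and at 435, 481 and 469 at 4 µM, which overlapped neither olaparib nor 2 µM CDDP but came within the spread of untreated cells (-0.19, 95% interval -0.47 to 0.089, adjusted p = 0.292).

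CDDP at the higher dose raised HBEGF wherever olaparib was present. In SUM1315 HBEGF was at 218, 267 and 291 with olaparib and 4 µM CDDP, above every olaparib library (1.24 ± 0.14, limma, adjusted p = 2.45e-07) and below every library with 4 µM CDDP alone (-0.84 ± 0.14, adjusted p = 0.000101). OlaR cells were at 108, 121 and 119, close to olaparib-treated parental cells (0.10, 95% interval -0.18 to 0.38, adjusted p = 0.590). With 4 µM CDDP the OlaR cells were at 188, 192 and 173, all above OlaR cells without it (0.66 ± 0.14, adjusted p = 0.00129). The interaction of olaparib with CDDP was 1.43 ± 0.20 (2.88e-06), and that of OlaR with CDDP was -0.58 ± 0.20 and did not pass (0.0746). In its order of means, 3 of 8 pairs of neighbours did not overlap.

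In MDA-MB-468 HBEGF was read 6 to 61 times per library, and rose with 2.5 µM CDDP in each setting. It was at 15.5, 10.8 and 3.66 in untreated cells and at 39.9, 21.8 and 33.5 with 2.5 µM CDDP, with no overlap (1.72 ± 0.41, limma, adjusted p = 0.00128). With olaparib it was at 10.98, 3.50 and 13.3, and with olaparib and 2.5 µM CDDP at 41.2, 41.2 and 33.1 (2.10 ± 0.41, adjusted p = 8.71e-05). In OlaR cells it was at 18.5, 8.87 and 7.63, and at 25.0, 29.5 and 28.6 with 2.5 µM CDDP (1.27 ± 0.41, adjusted p = 0.0229). The last call was lost without a filter on low values (0.0746) and with voom on recovered reads (0.0687), and without replicate 2 or 3 of either group. The call at 1 µM CDDP with olaparib (1.42 ± 0.41, adjusted p = 0.0300) was lost without a filter (0.112), with only the groups compared (0.120), and without combination replicate 1 or 2 or olaparib replicate 2. Without olaparib, the change of HBEGF with the higher CDDP dose differed between the lines by -1.91 ± 0.44 (0.000751), in a comparison called for 3 of 10 members and 27.5% of all genes.

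AREG, a ligand known for its role in mammary duct growth (chr4:74445136-74455005, plus strand), fell with each drug in SUM1315 and was partly higher again in OlaR cells. It was at 605, 694 and 472 in untreated cells, 156, 144 and 175 with olaparib, 173, 195 and 225 with 2 µM CDDP, and 145, 165 and 128 with 4 µM CDDP. All treated libraries lay below all untreated ones. The log2 fold change was -1.88 ± 0.16 with olaparib (limma, adjusted p = 2.96e-11), -1.57 ± 0.16 with 2 µM CDDP (1.95e-09) and -2.0 ± 0.16 with 4 µM CDDP (4.02e-12). Both drugs together left it at 141, 129 and 116, a change of -0.30 from olaparib (95% interval -0.60 to 0.012, adjusted p = 0.267 by limma). The effects of olaparib and 4 µM CDDP did not add up, with an interaction of 1.70 ± 0.22 (9.56e-07). OlaR cells were at 435, 365 and 387, between the olaparib and the untreated libraries and overlapping neither, and 2.49-fold above olaparib (1.32 ± 0.16, adjusted p = 2.52e-08). CDDP at 4 µM changed AREG in OlaR cells by 0.12 (-0.19 to 0.42, 0.681). In MDA-MB-468 AREG was read 1 to 48 times per library and no comparison within the line was called. There, OlaR libraries with 2.5 µM CDDP (17.5 to 31.7) lay above those without it (6.36 to 13.2). In that comparison 34.2% of all fitted genes did not overlap.

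EREG, which binds EGFR and ERBB4 (chr4:74365145-74388749, plus strand), was higher in OlaR SUM1315 cells than in any parental SUM1315 library. It was at 3102, 3148 and 2929.9 with olaparib, against 3813, 4160.1 and 3478 without drug, a log2 fold change of -0.32 ± 0.088 (limma, adjusted p = 0.00487). OlaR cells were at 6211, 5959 and 6442, 2.03-fold above olaparib (1.02 ± 0.088, adjusted p = 2.29e-11), and stayed at 6282 ± 466 with 2 µM and 5996 ± 404 with 4 µM CDDP. CDDP alone left EREG at 3339 ± 277 with 2 µM and 3636 ± 124 with 4 µM, and neither passed the test (limma, adjusted p = 0.0886 and 0.565). The rise with 4 µM CDDP on top of olaparib (0.29 ± 0.088, adjusted p = 0.0322) was lost without a filter on low values (0.0657) and without any 1 of the 6 libraries. The interaction of olaparib with CDDP (0.36 ± 0.12, 0.0349) was lost without a filter (0.0611) and in 7 fits that left out a library. The order of means had 3 of 8 pairs of neighbours without overlap, and the genes most like EREG over the 9 means were PSME4 and LGALSL (both r = 0.985) and TGFBR1 (0.984).

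TGFA, the ligand classically overexpressed in carcinomas (chr2:70447284-70554193, minus strand), was lower with olaparib and higher in OlaR cells in SUM1315. It was at 378, 357 and 385 in untreated cells and at 230.3, 194 and 139 with olaparib, with no overlap (-1.02 ± 0.15, limma, adjusted p = 3.19e-06). With 4 µM CDDP it was at 274, 258 and 261 (-0.50 ± 0.15, adjusted p = 0.00903), and with 2 µM at 432, 442 and 275, a group that overlapped untreated cells (0.0062, 95% interval -0.30 to 0.31, 0.979). OlaR cells were at 560.1, 443 and 537, above both olaparib-treated and untreated parental cells, and 2.77-fold over olaparib (1.47 ± 0.15, adjusted p = 1.89e-09). With olaparib and 4 µM CDDP it was at 227, 261 and 277, and the difference from olaparib just missed the threshold (0.46 ± 0.15, 0.0545). The interaction of olaparib with CDDP was 0.96 ± 0.22 (0.00146).

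In MDA-MB-468 TGFA was the most abundant ligand, with condition means of 84.1 to 118, and no comparison within the line was called. OlaR cells differed from olaparib by -0.27 (95% interval -0.62 to 0.073, limma, adjusted p = 0.197). The change in OlaR cells differed between the lines by 1.74 ± 0.24 (limma, 6.74e-08), and that with the higher CDDP dose by -0.83 ± 0.24 (0.00690). The genes most like TGFA over the 9 means in MDA-MB-468 were listed as CMC4 (r = 0.963), RGS19 (0.961) and TAZ (0.959).

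EPGN, the epigen gene (chr4:74308470-74316789, plus strand), was lowest in OlaR cells among the SUM1315 conditions. It was at 54.7, 60.01 and 61.0 in untreated cells, 112, 93.4 and 105 with olaparib, and 11.03, 13.4 and 9.96 in OlaR cells, the last from 6 to 8 reads. The 3 groups did not overlap. By limma EPGN was 8.42-fold lower in OlaR cells than with olaparib (-3.07 ± 0.31, adjusted p = 8.80e-10). The rise with olaparib (0.81 ± 0.31, adjusted p = 0.0408) was lost without a filter on low values (0.0645) and in all 6 fits that left out a library of either group. With CDDP alone it was at 40.2 ± 7.41 with 2 µM and 49.9 ± 23.6 with 4 µM, and neither passed the test (-0.54 ± 0.31 and -0.35 ± 0.31, limma, adjusted p = 0.181 and 0.377). With olaparib and CDDP it was at 56.7 ± 10.5 with 2 µM and 73.4 ± 21.4 with 4 µM, and with CDDP in OlaR cells at 23.0 ± 8.02 and 20.1 ± 3.12. None of these 4 differences from olaparib or OlaR cells passed the test, with limma adjusted p of 0.106, 0.335, 0.155 and 0.0925.

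BTC (betacellulin, chr4:74744759-74794523, minus strand) and EGF (chr4:109912883-110013766, plus strand) were measured mainly in MDA-MB-468, where they differed in OlaR cells in opposite directions. BTC was at 35.0, 73.4 and 31.5 in untreated cells, 30.5, 52.1 and 23.3 with olaparib, and 9.68, 11.05 and 12.04 in OlaR cells, the last from 8 to 10 reads and below every parental library of both groups (-1.53 ± 0.35 against olaparib, limma, adjusted p = 0.000211). EGF was at 14.5, 14.9 and 17.0 in untreated cells, 17.6, 6.71 and 21.5 with olaparib, and 33.9, 39.4 and 48.0 in OlaR cells, from 28 to 40 reads. All OlaR libraries lay above these, and EGF was 2.78-fold higher than with olaparib (1.47 ± 0.41, adjusted p = 0.00198). CDDP at 2.5 µM left BTC at 9.37 ± 0.721 and EGF at 34.8 ± 8.63 in OlaR cells, with limma adjusted p of 0.754 and 0.764.

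**Figure D3:**
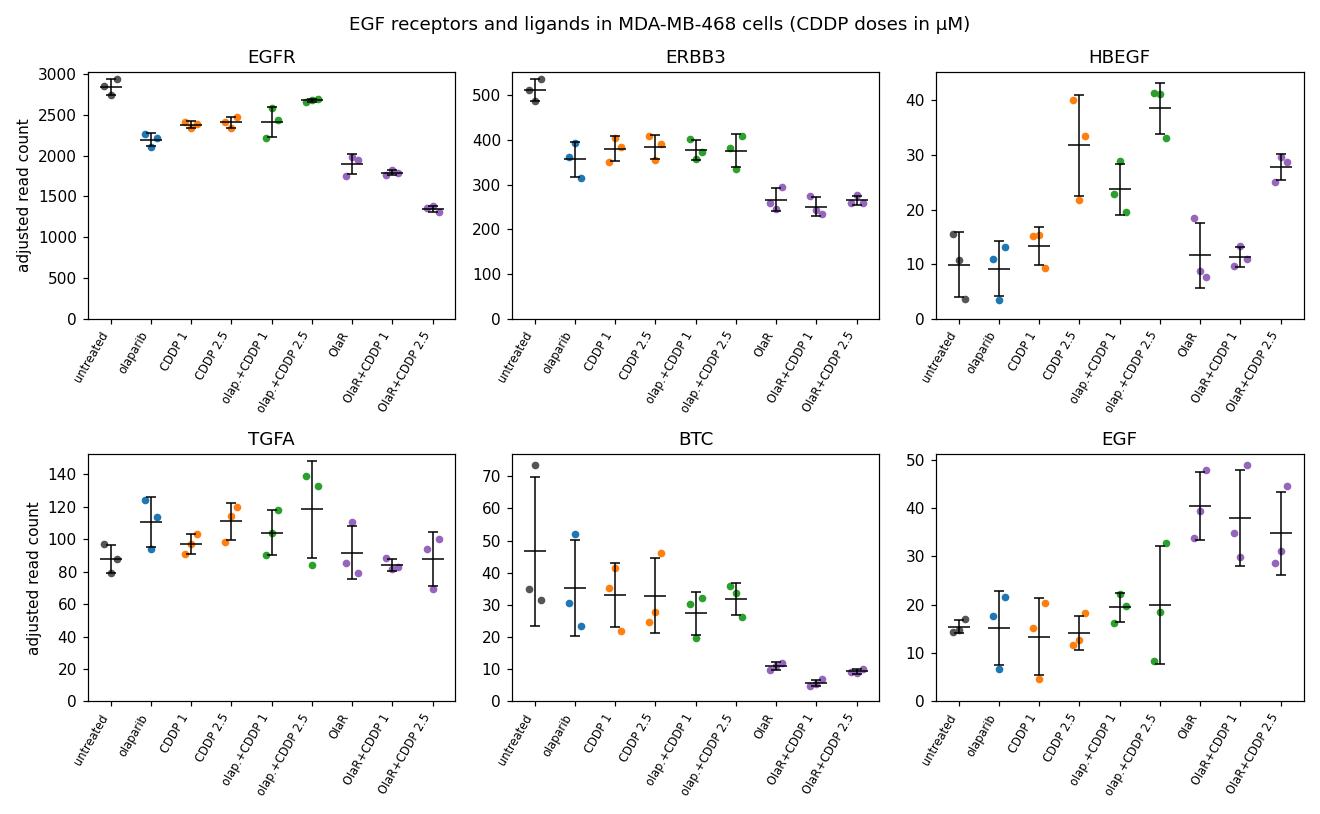
Adjusted read counts (y axis, linear, from 0) of EGFR, ERBB3 and 4 ligands in the 9 conditions of MDA-MB-468 cells (x axis), with 1 point per library and bars for the mean and SD of 3 libraries. EGFR, ERBB3 and BTC were lowest in the 3 OlaR groups, EGF was highest there, and HBEGF was highest with 2.5 µM CDDP alone or with olaparib.

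Set beside untreated parental cells, with no test, OlaR libraries of each line lay below for EGFR and on opposite sides for ERBB2. No ligand fitted in both lines lay apart from untreated cells in both. In SUM1315 the OlaR libraries lay below all untreated libraries for EGFR, HBEGF, AREG and EPGN and above them for ERBB2, EREG and TGFA, where 59.8% of all fitted genes did not overlap. The ratio of means was 0.518 for EGFR, 2.41 for ERBB2, 0.219 for HBEGF, 0.670 for AREG, 1.63 for EREG and 1.37 for TGFA. In MDA-MB-468 they lay below for EGFR, ERBB2, ERBB3 and BTC and above for EGF, where 59.7% of all fitted genes did not overlap. The ratio was 0.667 for EGFR, 0.351 for ERBB2, 0.522 for ERBB3, 0.234 for BTC and 2.62 for EGF.

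**Figure D4:**
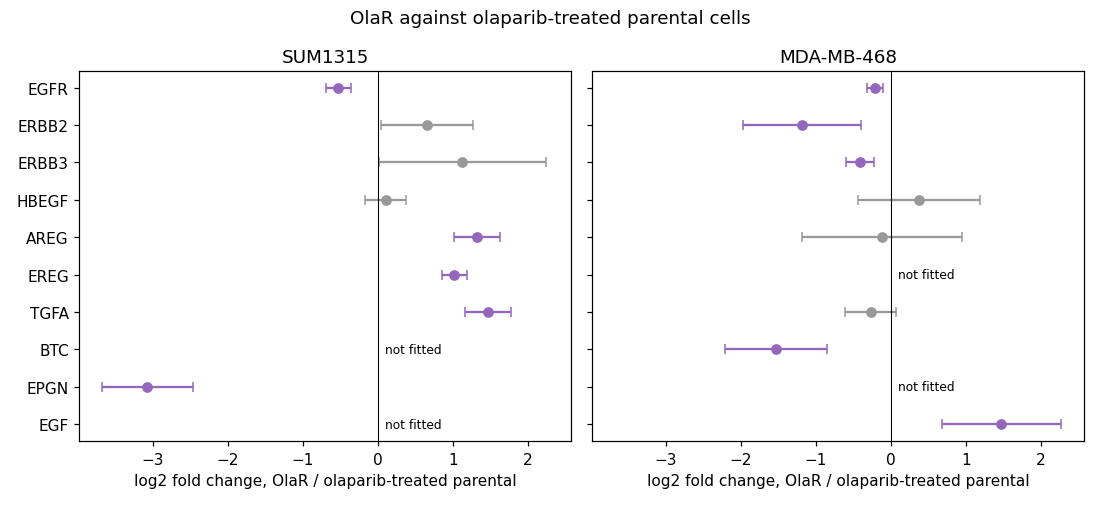
Log2 fold change of OlaR against olaparib-treated parental cells (x axis) for the 10 members (y axis) in each line, with bars for 95% intervals, purple for members called by limma and grey for those not called. EGFR lay below 0 in both lines, AREG, EREG and TGFA were called above 0 in SUM1315, and EGF was called above 0 in MDA-MB-468.

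Markers of cell state moved with OlaR in the same libraries. The summed level of the 7 epithelial markers was 1178 to 1218 with olaparib and 3877 to 4157 in OlaR cells in SUM1315, and 5667 to 6343 and 9808 to 10315 in MDA-MB-468. Basal keratins carried much of this: KRT17 was highest in OlaR SUM1315 cells (mean 3597) and KRT5 in OlaR MDA-MB-468 cells (3588), while EPCAM and CDH1 were near 0 in SUM1315, and in MDA-MB-468 CDH1 was highest in untreated cells (969) and KRT8 with olaparib (849). The 3 mesenchymal markers summed to 14554 to 15135 with olaparib and 11346 to 11969 in OlaR cells in SUM1315, and to 50.3 to 59.1 and 71.8 to 75.8 in MDA-MB-468. VIM makes up most of the SUM1315 sum, and the other members went opposite ways there, with FN1 highest (2430.1) and ZEB1 lowest (137) in OlaR cells. The 4 markers of other cell types, among which PTPRC and CD3E were near 0, summed to 643 to 695 and 179 to 275 in SUM1315 and to 43.5 to 61.1 and 32.0 to 34.6 in MDA-MB-468. Their part in the changes of the ligands and receptors was not tested.

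The difference between the lines in the CDDP response was called for HBEGF, AREG (-2.61 ± 0.64, limma, adjusted p = 0.00160) and TGFA. It was called for 0 of 10 members when CDDP was added to olaparib (1.87% of all genes, with 2 members at an unadjusted p under 0.05 and 0 called by voom) and for 0 of 10 in OlaR cells (5.44%, with 3 and 0). For EGFR the difference in these was -0.027 (95% interval -0.19 to 0.14, limma, adjusted p = 0.948) and 0.027 (-0.14 to 0.19, 0.901). CDDP and olaparib doses differ between the lines, so these are differences between dosed lines.

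Other genes of the pathway were described from lists by the part they play, with the share of all genes called by the same test beside each count. Of the remaining family genes, NRG1, which encodes a ligand of ERBB3 and ERBB4, was at 13.2 ± 1.98 with olaparib and 208 ± 25.8 in OlaR SUM1315 cells (3.88 ± 0.34, limma, adjusted p = 2.54e-11) and at 0 to 3 reads in MDA-MB-468. The receptor gene ERBB4 was at 11 to 16 reads in untreated SUM1315, 2 to 10 with olaparib, and 0 in each library with 4 µM CDDP alone and in OlaR cells without CDDP, too few for a fold. NRG2, another ligand gene, fell with 4 µM CDDP in OlaR SUM1315 cells (-1.03 ± 0.32, adjusted p = 0.0254). In OlaR against olaparib, 2 of 4 fitted genes of this list were called in SUM1315 (47.2% of all genes), NRG1 as higher and ERBB4 as lower. The 1 fitted in MDA-MB-468 was not called.

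Genes for ligand release were led by TIMP3, an inhibitor of the ADAM proteases. In SUM1315 TIMP3 fell with 4 µM CDDP (-2.97 ± 0.088, limma, adjusted p = 7.05e-23) and was higher in OlaR cells than with olaparib (1.84 ± 0.088, 9.55e-18). TIMP3 also had the largest fall of its list with olaparib alone, and its mean was higher in untreated SUM1315 cells (13736) than in OlaR cells. In MDA-MB-468 it fell with 2.5 µM CDDP (-0.48 ± 0.16, 0.0221), rose with it on top of olaparib (0.43 ± 0.16, 0.0498), was higher in OlaR cells (1.44 ± 0.16, 1.13e-10) and fell with CDDP there (-0.48 ± 0.16, 0.0305). In OlaR against olaparib, 1 of 8 fitted genes rose and 2 fell in SUM1315 (47.2% of all genes called), among them RHBDF2, an iRhom that escorts ADAM17 (-1.65 ± 0.16, 1.96e-10). In MDA-MB-468 1 of 7 rose and 3 fell (51.5%), with the largest fall in FRMD8, a partner of the iRhoms (-0.78 ± 0.088, 9.67e-11), which also fell with CDDP on top of olaparib (-0.65 ± 0.088, 5.85e-08). The metalloprotease gene ADAM12 fell in SUM1315 with 4 µM CDDP on top of olaparib (-0.80 ± 0.16, 0.00135) and in OlaR cells (-1.22 ± 0.16, 1.94e-06).

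Among adaptors and effectors, the 21 genes moved in both directions. In OlaR against olaparib, 2 rose and 5 fell in SUM1315, a smaller share than the 47.2% of all genes called, led by the kinase genes MAP2K2 (0.42 ± 0.10, limma, adjusted p = 0.00133) and MAPK3 (-0.88 ± 0.17, 7.84e-05). In MDA-MB-468 4 rose and 8 fell (51.5%), with the largest fall in the docking protein gene GAB2 (-1.38 ± 0.11, 6.65e-16). With the higher CDDP dose alone, 7 rose and 7 fell in SUM1315 (43.9%), led by the kinase gene AKT1 (1.53 ± 0.21, 3.81e-07) and GAB2 (-2.37 ± 0.70, 0.00616), and 4 rose and 2 fell in MDA-MB-468 (25.1%), led by the phospholipase gene PLCG1 (0.87 ± 0.25, 0.00743) and PIK3R1, for a regulatory subunit of PI3 kinase (-0.39 ± 0.075, 7.11e-05). On top of olaparib, the adaptor gene GRB2 rose (0.35 ± 0.099, 0.0228) and MAPK3 fell (-0.63 ± 0.17, 0.0184) in SUM1315, and the kinase gene AKT2 fell in MDA-MB-468 (-0.71 ± 0.072, 2.78e-11). In OlaR cells, MAPK3 fell with CDDP in SUM1315 (-0.54 ± 0.17, 0.0267), while PLCG1 rose (1.19 ± 0.25, 0.000381) and SOS2, for a RAS exchange factor, fell (-0.46 ± 0.13, 0.00631) in MDA-MB-468.

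ERRFI1, which encodes the EGFR feedback inhibitor MIG6, led the list of attenuation and traffic genes. It was at 2026 ± 149 in untreated SUM1315, 604 ± 65.2 with olaparib and 894 ± 16.9 in OlaR cells (0.57 ± 0.11 against olaparib, limma, adjusted p = 7.15e-05), and fell with 4 µM CDDP (-1.44 ± 0.11, 2.37e-12). In MDA-MB-468 it was at 326 ± 21.4, 149 ± 22.3 and 426 ± 66.3 (1.51 ± 0.12, 1.50e-15), and rose with CDDP on top of olaparib (0.50 ± 0.12, 0.00119). In OlaR against olaparib, 2 of 14 genes of the list rose and 3 fell in SUM1315, a smaller share than the 47.2% of all genes called, with the largest fall in the phosphatase gene PTPN1 (-0.63 ± 0.11, 1.04e-05). In MDA-MB-468 4 rose and 3 fell, near the 51.5% of all genes, with the largest fall in LRIG1, a gene for a receptor-binding inhibitor (-1.48 ± 0.29, 2.11e-05).

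Besides ERRFI1, other genes of that list led with CDDP. In MDA-MB-468 PTPN1 rose with CDDP alone (0.31 ± 0.069, limma, adjusted p = 0.000550) and fell with it on top of olaparib (-0.28 ± 0.069, 0.00127), and the ubiquitin ligase gene CBLB fell with CDDP alone (-1.29 ± 0.47, 0.0392). SH3KBP1, an adaptor for receptor uptake, rose with CDDP on top of olaparib in SUM1315 (0.34 ± 0.086, 0.0104) and fell with CDDP in OlaR MDA-MB-468 cells (-0.58 ± 0.069, 5.10e-09). In SUM1315 SOCS5 rose with CDDP alone (0.59 ± 0.16, 0.00317), and in OlaR cells with CDDP its relative SOCS4 rose (0.59 ± 0.15, 0.00710) and RAB7A, of the late endosome, fell (-0.27 ± 0.085, 0.0252).

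Early targets of receptor signalling fell widely with olaparib. Of 13 genes, 10 fell and 0 rose in SUM1315 by limma, where 36% of all genes were called (median log2 fold change -0.86, against -0.0026 for all genes), and of 12 fitted in MDA-MB-468, 6 fell and 0 rose, where 21.5% of all genes were called (-0.40, against 0.011). In OlaR against olaparib, 6 rose and 5 fell in SUM1315 (47.2%) and 6 rose and 2 fell in MDA-MB-468 (51.5%). ETV4, a transcription factor gene of the ERK pathway, had the largest rise in each line, of 1.26 ± 0.12 in SUM1315 (limma, adjusted p = 3.40e-10) and 1.90 ± 0.29 in MDA-MB-468 (1.47e-07). EGR1, an immediate early gene, had the largest fall in each. It was at 1399 ± 160.4 with olaparib and 58.2 ± 5.76 in OlaR SUM1315 cells (-4.56 ± 0.14, adjusted p = 3.56e-23), and at 326 ± 50.5 and 80.4 ± 11.4 in MDA-MB-468 (-2.01 ± 0.13, 4.52e-19).

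CDDP moved the early targets unevenly. With the higher dose alone, 2 rose and 7 fell in SUM1315 (43.9% of all genes called), led by ETV4 (0.39 ± 0.12, limma, adjusted p = 0.00997) and EGR1 (-1.39 ± 0.14, 6.27e-10), and 0 rose and 2 fell in MDA-MB-468 (25.1%), led by ETV4 (-0.87 ± 0.29, 0.0196). On top of olaparib, 3 rose and 1 fell in SUM1315 (8.44%), led by the feedback gene SPRY2 (0.98 ± 0.17, 0.000264) and the cyclin gene CCND1 (-0.31 ± 0.095, 0.0379), and 4 rose in MDA-MB-468 (23.1%), led by the ERK phosphatase gene DUSP6 (1.37 ± 0.38, 0.00532). In OlaR cells, FOSL1, for an AP-1 subunit, rose (0.61 ± 0.19, 0.0242) and EGR1 fell (-1.16 ± 0.14, 2.21e-07) in SUM1315, and DUSP6 led 4 genes that rose in MDA-MB-468, where 18.7% of all genes were called (1.11 ± 0.38, 0.0316).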

How the data were processed

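RNA of both cell lines was sequenced as QuantSeq 3′ libraries, and the submitters' processing notes name CASAVA 1.8.2, FastQC, STAR, HTSeq and edgeR. The authors deposited, for 27470 genes on hg38, a signal of adjusted read counts that was equalized to a common library size by edgeR. That step pulls low values toward the mean of their condition. All 1483380 values were given back from whole reads within a relative tolerance of 1e-06. Deposited columns of the authors' own log2 fold changes, p-values and false discovery rates were not used.

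Groups came from the sample labels. The labels write the drug doses in mM, read here as µM, and the series text gives 2 µM where the labels of MDA-MB-468 give 2.5. A pseudocount of 1 was added, and log2 values were fitted with limma 3.58.1 (R 4.3.3, trend) in the 27 libraries of a line, for genes at 10 or more in at least 3 libraries, with Benjamini-Hochberg adjustment over the 13133 (SUM1315) or 13012 (MDA-MB-468) genes kept. Differences between lines came from a fit of all 54 libraries (14460 genes). Fold changes are on this scale, which understates those of low genes, and depth limits the precision of these. All members were named, and of each pathway list the called gene with the largest rise and fall in each of 4 comparisons per line. A result that this rule names is not reported here. For EGFR and the highest ligand, the 3 genes most alike over condition means were named among genes with a mean of at least 50. The members and lists were chosen with earlier results of these data known. Alternatives were no filter on low values, a pseudocount of 5, fits of only the groups compared, a replicate block, voom on recovered reads, and leaving out each library.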

Additional observations from a re-analysis of the deposited data

Results flagged for a closer look

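The following differences between effects passed the test of the difference itself (limma, adjusted p at most 0.05), on the log2 scale. Between OlaR and olaparib-treated parental cells, the effect of the higher CDDP dose on EGFR differed by -0.72 in SUM1315 and -0.78 in MDA-MB-468. Between parental cells with and without olaparib, the effect of the higher CDDP dose in SUM1315 differed by 0.60 for EGFR, 1.43 for HBEGF, 1.70 for AREG, 0.36 for EREG and 0.96 for TGFA. In MDA-MB-468 that difference was 0.53 for EGFR and 0.49 for ERBB3.

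Between the lines, SUM1315 minus MDA-MB-468, the effect of the higher CDDP dose without olaparib differed by -1.91 for HBEGF, -2.61 for AREG and -0.83 for TGFA. The difference of OlaR from olaparib-treated cells differed between the lines by -0.32 for EGFR, 1.84 for ERBB2, 1.54 for ERBB3, 1.74 for TGFA, 2.20 for BTC, -3.38 for EPGN and -3.74 for EGF. ERBB3, BTC and EGF did not exceed 13 reads in any SUM1315 library, and EPGN did not exceed 3 reads in any MDA-MB-468 library, so these 4 values rest on few reads in 1 line. HBEGF, AREG and ERBB2 were also low in MDA-MB-468, at 6 to 61, 1 to 48 and 4 to 71 reads per library. The BTC value was lost without a filter on low values (limma, adjusted p = 0.0619) and in 5 fits without 1 library: SUM1315 OlaR replicate 1 (0.0904) or 3 (0.0628), SUM1315 olaparib replicate 1 (1.21, 0.233), MDA-MB-468 OlaR replicate 1 (0.0595) and MDA-MB-468 olaparib replicate 2 (0.0924). Line, dose and batch cannot be told apart in these comparisons, and no cause was tested.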

How the results depend on the processing

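No result changed sign under any alternative run. The planned edgeR and DESeq2 tests were not run, because the deposited values are not counts, and voom on the recovered reads, chosen after seeing the data, took their place. With a pseudocount of 5, all 58 member values called in the main fits kept their call. Replicate numbers are shared only as labels: deviations of same-numbered libraries correlated at -0.0977 to 0.163 in SUM1315 and -0.0468 to 0.0426 in MDA-MB-468 (108 pairs each). With the replicate block, too, all 58 called values kept their call.

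Some counts of members called moved as follows, and calls lost in other counts are named after them. For the lower CDDP dose on olaparib in SUM1315 the count was 0, and 1 with voom or with only the groups compared. For the interaction of CDDP with OlaR in SUM1315 it was 1, 3 with only the groups compared, and 1 to 2 without 1 library (2 without OlaR with 4 µM CDDP, olaparib, or combination replicate 1). For the higher CDDP dose on olaparib in SUM1315 it was 2, 3 with voom, and 1 to 2 without 1 library, and in MDA-MB-468 2, and 3 with voom. For the lower CDDP dose on olaparib in MDA-MB-468 it was 1, 0 without a filter or with only the groups compared, and 0 to 1 without 1 library (0 without olaparib or combination replicate 2). For the higher CDDP dose in OlaR MDA-MB-468 it was 2, 1 without a filter, 1 with voom, and 1 to 2 without 1 library. For olaparib on the higher CDDP dose in MDA-MB-468 it was 0, and 1 with voom or with only the groups compared. The cause was not tested. Other counts also lost members in some fits. In SUM1315 these were EPGN for olaparib, EREG for the interaction of olaparib with CDDP, and EGFR for 2 µM CDDP. ERBB2 was lost for OlaR against olaparib in MDA-MB-468, and BTC for the OlaR difference between the lines. Of 462 single values with 1 library left out, 33 lost their call.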
